A study of Mus musculus with 20 samples.

Results

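The left ventricle of chow-fed control mice was described from 5 of the 20 libraries of the series, RT1, RT3, RT5, RT8 and RT10, 1 mouse each. They were chosen by their labels (genotype WT, diet chow), and genes were ranked by mean FPKM (fragments per kilobase of transcript, scaled to the mapped fragments of the library, a level per transcript length). Symbols that start with mt- (15 genes of the mitochondrial genome) and 6 haemoglobin genes were left out of the ranking. The mice called WT carried floxed alleles of Acacb (ACC2 f/f) without the MerCreMer (MCM) transgene, and they too were injected at the age of 8 weeks, on 5 days, with 20 mg/kg of tamoxifen. They are therefore floxed, tamoxifen-treated mice and not untreated wild types. The labels put 4 weeks between the last injection and the start of 16 weeks of high-fat feeding. For the chow group no separate span is given, and the strain and the age when tissue was taken are not stated in the sources used here. The high-fat and iKO groups of the series are not compared here. RNA came from frozen left ventricle and was poly(A)-enriched, per the labels' protocols.

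The ventricular wall contracts through sarcomeres, in which myosin thick filaments pull on actin thin filaments when calcium binds troponin. Calcium is released through the ryanodine receptor and pumped back by SERCA, whose activity phospholamban restrains. The energy comes almost wholly from mitochondria, which burn mainly fatty acids. Many of these proteins exist as paralogues, separate genes for nearly the same protein, and heart, skeletal muscle, atrium and non-muscle tissue each use their own set.

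The tables listed 25052 genes, of which 21470 were above 0 in at least 1 of the 5 libraries. The depth, judged from how low FPKM values step up by whole reads, was 21.4 M reads ± 1.17 (SD, n = 5), from 19.6 M in RT3 to 22.65 M in RT5, against about 50 M per sample in the labels' protocols. The 10 pairs of libraries had correlations across genes of log2(FPKM + 1) between 0.991 and 0.994, as a description over genes of libraries of similar depth, and no pair was identical. Library RT1 stood apart by transcripts of atrial muscle. Myl7, the atrial regulatory myosin light chain, was at 145 FPKM in RT1, 0 in RT3, 0 in RT5, 0.09 in RT8 and 0.09 in RT10. Values without RT1 are given beside the results that rest most on it.

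The first 4 places of the ranking were held by nuclear sequences that repeat part of the mitochondrial genome. They belong to a group of 6 unprocessed pseudogenes, of which Gm10222 stood at rank 9 and Gm29216 at rank 113. The 6 lie on chromosome 1 between 24612407 and 24616197 (GRCm38), and 4 are identical over their whole length to a mitochondrial mRNA. The first 100 bases of Gm28437 (chromosome 1, 24613189 to 24613971) and of mt-Co3, which encodes a subunit of cytochrome c oxidase, are shown because they hold the same letters. They are taken from the GENCODE M21 transcripts and stand in lower case throughout, since capitals would mark a base that differs.
Gm28437: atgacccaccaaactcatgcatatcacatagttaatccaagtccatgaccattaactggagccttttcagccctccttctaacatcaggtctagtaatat
mt-Co3: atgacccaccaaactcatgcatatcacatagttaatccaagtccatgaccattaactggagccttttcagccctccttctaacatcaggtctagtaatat
Every one of the 684 windows of 100 nt in Gm28437, the length of a read, was also present in the mitochondrial transcripts, and the same held for all windows of Gm28661, Gm10925 and Gm10222. For Gm28438 98.8% and for Gm29216 96.7% of such windows were shared.

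Of the 6 copies, 4 stood in the authors' values above the mitochondrial gene they repeat. Gm28437 stood at 66055 FPKM in RT1, 65327 in RT3, 66400.4 in RT5, 67334 in RT8 and 67719 in RT10, whereas mt-Co3 had 3271, 3269, 3710.3, 2515 and 2113 FPKM. All 5 libraries showed this order, and the ranges were far apart. Gm28661 had a mean of 59660.1 ± 2106 FPKM (SD, n = 5) and mt-Co2 1047 ± 219.5. Gm10925 had 38666 ± 626 and mt-Atp6 4789 ± 252, and Gm28438 had 25547 ± 810.0 and mt-Nd3 3232 ± 261. The order was the other way for Gm10222, at 5163 ± 394 FPKM against 12502 ± 271 for mt-Nd4l, and for Gm29216, at 438 ± 109 against 79826 ± 1754 for mt-Co1. Reads that fall in shared windows cannot be told apart, and these are all reads of 4 copies and nearly all of Gm28438 and Gm29216, so the value of a copy is not read here as a level of its own. The copies took 35.9% ± 0.527 of the FPKM left after the exclusions. Together with the mt- genes they took 57.0% ± 0.554 of all FPKM. By the ranking as stated 30 genes made up 50% of the summed FPKM, and without the 6 copies 231 genes did. Ranks and shares below are over the 25025 nuclear genes without the copies unless stated otherwise, a choice made after these values were seen.

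Sarcomere genes led the nuclear ranking. The most abundant transcript in every mouse was Myl2, the ventricular regulatory myosin light chain (ENSMUSG00000013936.12, chromosome 5, 122100951 to 122113472), with 11528 FPKM in RT1, 11814 in RT3, 12208 in RT5, 11823 in RT8 and 12164 in RT10. It was followed by Mb, myoglobin, the oxygen store of muscle (chromosome 15, 77015487 to 77050670), with 9614, 9672, 10000.4, 9911 and 9857 FPKM in the same order of libraries. The lowest Myl2 value lay above the highest Mb value, and the SDs were 281 and 163 FPKM. Tpm1, the tropomyosin that lies along the thin filament, had a mean of 5632 ± 170.2 FPKM and Myl3, the ventricular essential light chain, 5196 ± 109. The cardiac actin Actc1 had 4565 ± 199 FPKM and the troponin T of heart, Tnnt2, 3741 ± 78.5. Each of these 6 genes was clear of the next in the ranking, with ranges that did not overlap.

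**Figure D1:**
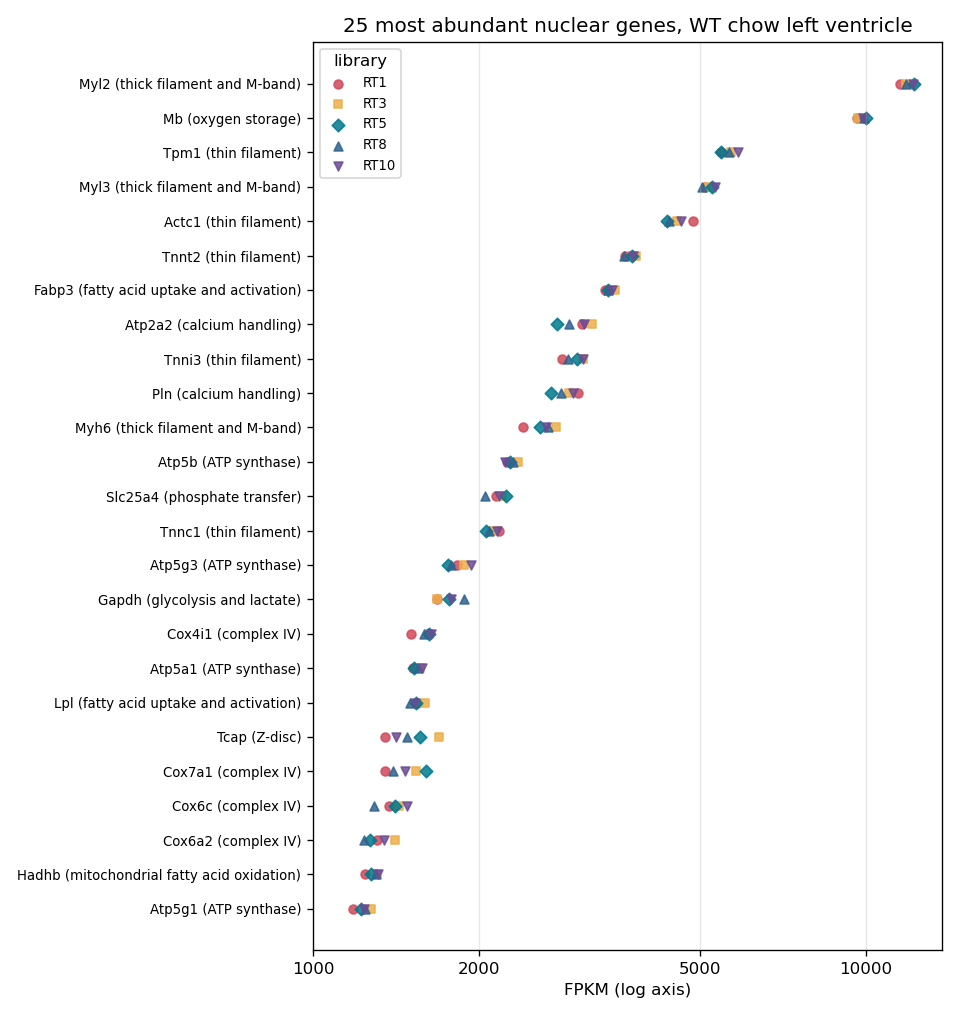
FPKM (log axis) of the 25 most abundant nuclear genes in each of the 5 WT chow libraries, 1 symbol per library, with the gene class in parentheses. The 5 symbols of Myl2 sit between 11528 and 12208 FPKM and those of Mb between 9614 and 10000.4; from Atp2a2 downward the ranges of neighbours mostly overlap.

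Below the first places the order was often not resolved. Fabp3, which carries fatty acids in cardiomyocyte cytosol and is the most abundant gene of fatty acid metabolism here, held 3372, 3511, 3414, 3408 and 3473 FPKM. Atp2a2, the calcium pump SERCA2, then Tnni3, the inhibitory troponin, and Pln, phospholamban, came at 3000.5 ± 171 FPKM, 2971 ± 117 and 2875 ± 124, and their ranges overlapped. The main myosin motor, Myh6, had 2602 ± 129.5 FPKM, lowest in RT1 at 2401 and highest in RT3 at 2746. The ATP synthase beta subunit Atp5b had 2277 ± 46.7, the ADP/ATP translocator Slc25a4 2158 ± 71.8 and Tnnc1, the calcium-binding troponin, 2114 ± 46.2. Of the 24 neighbouring pairs among the first 25 genes, 10 had ranges that did not overlap, and 14 kept their order in every mouse.

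The places from 15 to 25 were taken mainly by energy metabolism. Gapdh of glycolysis had 1752 ± 82.5 FPKM, Lpl, the lipase that frees fatty acids from lipoproteins, 1541 ± 36.3, and Hadhb, the beta subunit of the trifunctional protein of fatty acid oxidation, 1286 ± 29.0. The ATP synthase genes Atp5g3, Atp5a1 and Atp5g1 lay at 1830.4 ± 72.4, 1545 ± 25.5 and 1232 ± 33.9. The cytochrome c oxidase subunits Cox4i1, Cox7a1, Cox6c and Cox6a2 lay at 1593 ± 51.2, 1470.0 ± 101, 1396 ± 69.6 and 1311 ± 66.2. Tcap, telethonin, which caps titin at the Z-disc, had the widest relative spread of the first 25, at 1349, 1691, 1561, 1482 and 1411 FPKM. Among the first 50 genes 12 belonged to the contractile classes and 18 to nuclear-encoded oxidative phosphorylation, and among the first 100 the numbers were 16 and 39. The 50 genes took 29.5% ± 0.438 of nuclear FPKM and the 100 genes 38.0% ± 0.524. The top 50 genes of the single libraries had 46 genes in common. Of the first 100 genes 99 were protein-coding. The exception was Rn18s-rs5, a gene related to ribosomal RNA, with 970.0, 1275, 1182, 1065 and 1439 FPKM.

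Because FPKM is a level per length, the reads themselves were spread differently. Each level was multiplied by the number of positions where a 100 nt read can start in a transcript of the gene's mean annotated length. By this measure Atp2a2 came first, with 1.85% ± 0.0901 of nuclear read mass, ahead of Mb (1.63% ± 0.0443), Tpm1 (1.56% ± 0.0482) and Pln (1.14% ± 0.0378). Myl2 moved to the fifth place, with 0.983% ± 0.0310. Ryr2, the calcium release channel, with a very long transcript, moved from rank 566 to rank 23 at a level of 88.9 ± 2.92 FPKM. The first 100 genes had a median transcript length of 875 nt against 1844 nt for all genes of at least 1 FPKM. These lengths weight all annotated transcripts of a gene equally, so read mass is approximate.

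Across classes, the 59 contractile genes held 14.4% ± 0.157 (SD, n = 5) of nuclear FPKM (9.26% ± 0.0670 by the ranking as stated, with the copies in the sum). Mitochondrial energy metabolism, with 125 nuclear genes, held 17.3% ± 0.316 (11.1% ± 0.187 with the copies). Its 85 genes of oxidative phosphorylation alone held 13.2% ± 0.250. The energy share was lowest in RT1, at 16.8%, and lay between 17.2% and 17.6% in the others. By read mass the order turned, with 11.3% ± 0.202 for the contractile genes and 10.7% ± 0.230 for the energy genes. All the classes listed, 454 genes, took 52.2% ± 0.369 of nuclear FPKM.

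**Figure D2:**
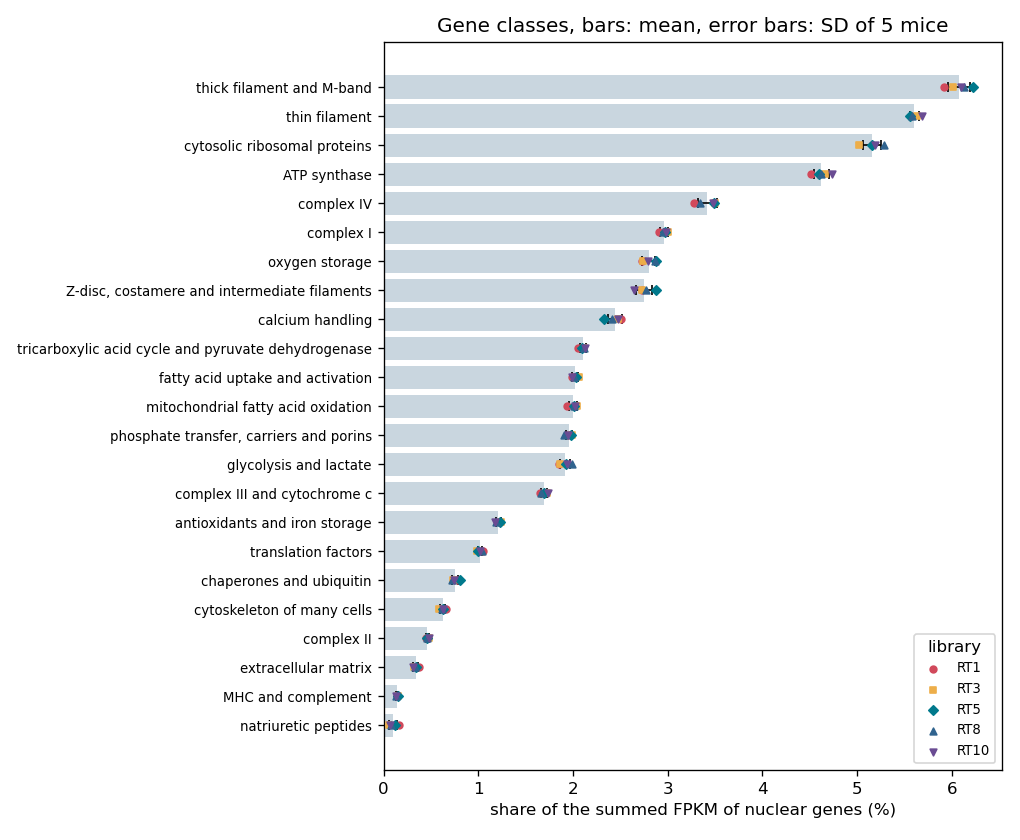
Share of each gene class in the summed FPKM of nuclear genes without the mitochondrial copies (x axis, percent). Bars are means of 5 mice, error bars SDs and symbols the single libraries; thick filament genes reach 6.07%, thin filament genes 5.61% and natriuretic peptides 0.0971%.

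Within the sarcomere, thick filament and M-band genes took 6.07% ± 0.116, most of it from the light chains. Mybpc3, the cardiac myosin-binding protein C, stood at 699.7 ± 42.1 FPKM. Titin (Ttn), the giant spring of the sarcomere, had 48.6 ± 4.14. The thin filament took 5.61% ± 0.0516. After its 5 leading genes came Lmod2, a leiomodin that nucleates actin, at 278 ± 32.7 FPKM, and the skeletal actin Acta1 at 132 ± 41.3. The Z-disc, costamere and intermediate filament genes took 2.75% ± 0.0840, with Csrp3, the muscle LIM protein, at 1089.5 ± 51.8, the small chaperone Cryab at 941 ± 53.4 and Fhl2, another LIM protein, at 934 ± 61.4. Ankrd1, a stretch-responsive titin-binding protein, had 634 ± 111 and the calsarcin Myoz2 609 ± 29.0. Calcium handling took 2.44% ± 0.0721, with S100a1, a calcium-binding regulator of SERCA and the ryanodine receptor, at 659 ± 24.8 and Casq2, the calsequestrin that stores calcium, at 374 ± 19.3.

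Among the respiratory complexes, ATP synthase took 4.62% ± 0.0809, complex IV 3.42% ± 0.0991, complex I 2.96% ± 0.0384, complex III with cytochrome c 1.69% ± 0.0362 and complex II 0.463% ± 0.0131. Most subunits were abundant: 79 of the 85 genes had a mean of at least 100 FPKM, as did 506 of all 25025 nuclear genes. Subunits of one complex differed in level. In complex I, the entry point of electrons from NADH, levels ran from 52.9 ± 1.46 FPKM for Ndufa11 to 645 ± 17.6 for Ndufb9, with a median of 279 FPKM. In complex II the 4 subunits lay between 169 ± 8.81 for Sdhc and 559.5 ± 27.9 for Sdhb. Cycs, the somatic cytochrome c that carries electrons to complex IV, had 123 ± 3.20, under each of the 9 complex III genes. Copies were searched for genes of the mitochondrial genome only, so reads that Cycs may share with other nuclear sequences were not looked for. The spread between mice was small, with a median coefficient of variation (CV, the SD as a percent of the mean) of 3.39% over the 85 genes.

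Fatty acid oxidation enzymes took 2.003% ± 0.0411 and genes of fatty acid uptake and activation 2.02% ± 0.0307. The oxidation and energy shares leave out Ech1, a fatty acid oxidation enzyme outside the lists, at 979.5 ± 51.4 FPKM (0.279% of nuclear FPKM). The medium- and long-chain acyl-CoA dehydrogenases Acadm and Acadl had 667 ± 11.9 FPKM and 561 ± 14.3. Cpt1b, the muscle carnitine palmitoyltransferase that admits fatty acids to mitochondria, had 168 ± 6.25, and Cd36, the fatty acid translocase, 819 ± 36.4. The tricarboxylic acid cycle and pyruvate dehydrogenase took 2.10% ± 0.0326, led by Idh2, the mitochondrial NADP-dependent isocitrate dehydrogenase, at 1007 ± 44.6. Glycolysis and lactate genes took 1.91% ± 0.0559. Phosphate transfer, carriers and porins took 1.95% ± 0.0307, with mitochondrial creatine kinase Ckmt2 at 1206 ± 73.6 and the phosphate carrier Slc25a3 at 1029 ± 41.3 after Slc25a4. Cytosolic ribosomal proteins, 89 genes, held 5.16% ± 0.0939, with none among the first 50 genes, and extracellular matrix genes held 0.337% ± 0.0243.

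Acacb, the floxed gene, encodes ACC2, which makes the malonyl-CoA that inhibits the carnitine palmitoyltransferase at the mitochondrial membrane. It stood at 37.5 FPKM in RT1, 41.07 in RT3, 39.27 in RT5, 37.42 in RT8 and 37.77 in RT10. Its paralogue Acaca, the carboxylase of fatty acid synthesis, stood at 2.02, 2.73, 1.96, 2.19 and 1.93 FPKM. Acacb was 18.1 ± 2.03 times (SD of the ratio, n = 5) as high and made up 94.7% ± 0.602 of the pair, with no overlap between the 2 genes.

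Isoform choice was the same in nearly all mice. Of 69 families of paralogues listed, 68 had at least 2 measured members and a summed mean of at least 1 FPKM. The same member led in all 5 mice in 65 families, and in 63 its lowest value lay above the highest value of the next member. The leading member took at least 90% of the family's FPKM in 30 families, 50% to 90% in 34 and less than 50% in 4. Its share had a median of 86.4% over families and a median SD of 0.835 percentage points between mice. An exact sign-flip test of 1 member against another over 5 mice cannot go below p = 0.0625 (both directions counted), so the orders are given as counts of mice, without a test.

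Paralogues can be counted apart only where their sequences differ. The first 90 coding bases are shown for the leading and next members of 2 families, with the bases that differ in capitals (20 of 90 between the myosins and 14 of 90 between the actins, from the longest open reading frame of a GENCODE M21 transcript of each gene).
Myh6: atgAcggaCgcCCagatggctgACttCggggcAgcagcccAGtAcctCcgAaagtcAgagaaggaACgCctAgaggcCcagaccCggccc
Myh7: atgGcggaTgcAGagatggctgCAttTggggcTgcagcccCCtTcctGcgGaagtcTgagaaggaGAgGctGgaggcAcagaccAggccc
Actc1: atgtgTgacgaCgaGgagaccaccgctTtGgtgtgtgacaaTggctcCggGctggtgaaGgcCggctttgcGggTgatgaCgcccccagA
Acta1: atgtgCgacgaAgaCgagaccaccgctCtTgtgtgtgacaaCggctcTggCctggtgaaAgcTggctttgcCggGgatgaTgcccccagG
Of all windows of 100 nt in the transcripts of Myh7, 7.84% also occur in those of Myh6. In the other 67 families no window of the next member occurs in the leading one.

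The sarcomere families were nearly exclusive. Myh6, the fast alpha myosin heavy chain of the adult rodent ventricle (chromosome 14, 54941921 to 54966927), made up 97.2% ± 0.560 of the myosin heavy chains. Its neighbour Myh7 (chromosome 14, 54970684 to 54994626), the slow beta chain, had 36.62 FPKM in RT1, 12.46 in RT3, 30.72 in RT5, 48.95 in RT8 and 21.54 in RT10. The ratio of Myh6 to Myh7 ran from 54.4 in RT8 to 220.4 in RT3, and most of that range came from Myh7. The skeletal fast chains Myh1 and Myh2 were at most 0.02 FPKM in any library. Tnni3 made up 99.97% of troponin I, and Tnni1, the troponin I of slow muscle and of the fetal heart, was at 0.266 ± 0.175 FPKM. Tnnt2 made up 99.8% ± 0.0266 of troponin T, Tpm1 98.5% ± 0.185 of tropomyosin and Mybpc3 99.2% ± 0.672 of its family. Without RT1 the Mybpc3 share was 99.5% ± 0.0547 (SD, n = 4).

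Actins were less exclusive. Actc1 made up 92.4% ± 0.732, and next came skeletal Acta1 with 198 FPKM in RT1, 109 in RT3, 134 in RT5, 130.1 in RT8 and 88.61 in RT10. The ubiquitous Actg1 and Actb had 113 ± 9.83 and 91.5 ± 6.79 FPKM and smooth muscle Acta2 40.3 ± 5.43. Myl2 made up 99.6% ± 0.557 of regulatory light chains, with the lowest share, 98.6%, in RT1. Myl3 made up 97.2% ± 1.30 of essential light chains, with 94.8% in RT1, the library with atrial transcripts. Without RT1 these shares were 99.8% ± 0.0376 and 97.7% ± 0.139 (SD, n = 4).

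**Figure D3:**
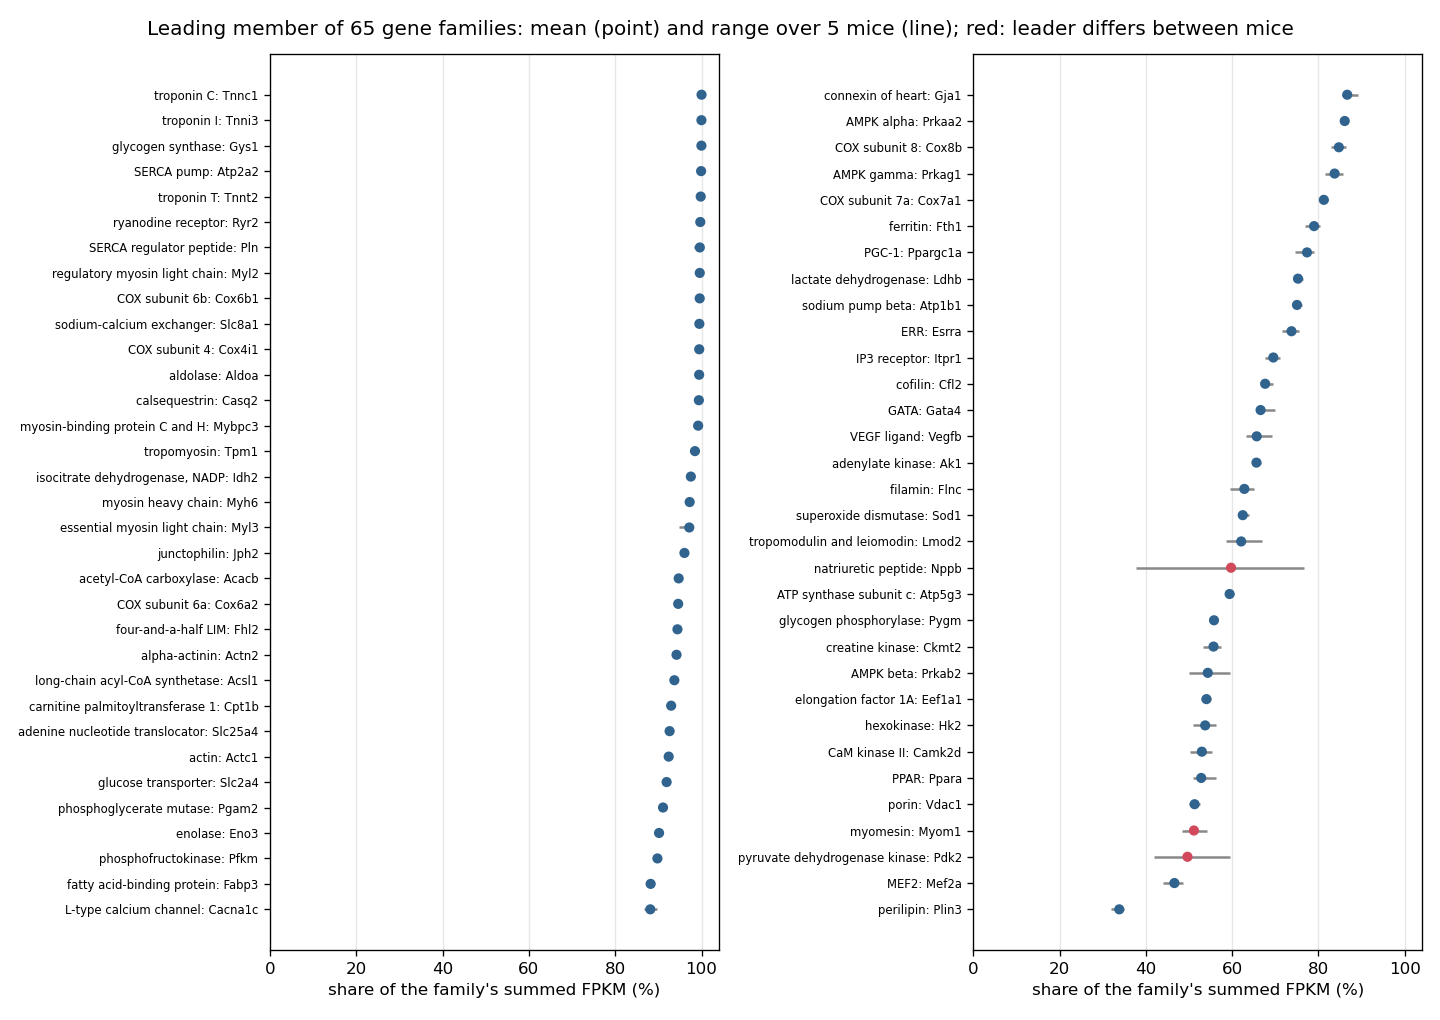
Share of the leading member in the summed FPKM of each of 65 of the 68 gene families (x axis, percent). Points are means over 5 mice, lines run from the lowest to the highest mouse and red points mark the 3 families in which the leader was not the same in every mouse; troponins, SERCA and the ryanodine receptor lie near 100% and perilipins lowest at 33.8%.

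Some sarcomere families were shared between members. The M-band proteins Myom1 and Myom2 had 238 ± 8.08 FPKM and 228 ± 25.1. Myom1 was the higher in 4 mice and Myom2 in RT8, at 254 against 239.8. Among capping and nucleating proteins of the thin filament, Lmod2 held 62.1% ± 3.42 and Tmod1, tropomodulin 1, 21.4% ± 2.11. Filamin C of striated muscle (Flnc) held 62.8% ± 2.24, and Flna of many cell types 29.6% ± 1.86.

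Calcium handling relied on single genes for the store and on several for signalling. Atp2a2 made up 99.9% ± 0.00897 of the SERCA pumps, Ryr2 99.7% ± 0.179 of the ryanodine receptors, Casq2 99.4% ± 0.453 of the calsequestrins (99.6% ± 0.0790 without RT1, n = 4) and Slc8a1 99.5% ± 0.116 of the sodium-calcium exchangers. Jph2, the junctophilin that couples the membranes of the release unit, made up 96.0% ± 0.339. The L-type channel pore was 88.1% ± 1.37 Cacna1c and 11.3% ± 1.32 Cacna1s, the skeletal muscle subunit. Of the CaM kinases, Camk2d held 53.0% ± 2.003 and Camk2a 26.4% ± 1.24. The main connexin of the ventricle, Gja1, held 86.7% ± 1.62.

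In glycolysis the muscle isoforms led, though rarely alone. Pfkm held 89.8% ± 0.537 of phosphofructokinase, Pgam2 91.1% ± 0.444 of phosphoglycerate mutase, Eno3 90.2% ± 0.435 of enolase and Slc2a4, the insulin-responsive glucose transporter, 91.9% ± 0.665 of its family. Hk2 and Hk1 shared hexokinase, 53.7% ± 2.27 and 34.1% ± 1.86. Ldhb, the lactate dehydrogenase subunit typical of heart, had 948, 974, 969.8, 963 and 974 FPKM, and Ldha, typical of fast skeletal muscle, 309, 278, 277, 311 and 293. Ldhb was 3.30 ± 0.209 times as high as Ldha, above it in 5 of 5 mice. Glycogen phosphorylase was split between the muscle gene Pygm (55.8% ± 0.612) and the brain gene Pygb (43.9% ± 0.555). Creatine kinase was split between mitochondrial Ckmt2 (55.7% ± 1.71) and cytosolic Ckm (43.5% ± 1.65), and brain-type Ckb had 17.4 ± 1.17 FPKM.

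The mitochondrial families mostly favoured the striated-muscle forms. Of the cytochrome c oxidase subunits, Cox6a2 held 94.6% ± 0.293, Cox7a1 81.2% ± 0.789 and Cox8b 84.7% ± 1.39 over their widely expressed paralogues Cox6a1, Cox7a2 and Cox8a. Cox4i1 held 99.5% ± 0.0213 and Cox6b1 99.6% ± 0.101, in each case the widely expressed form. Subunit c of ATP synthase, 1 protein from 3 genes, came as 59.4% ± 0.960 Atp5g3 and 39.99% ± 1.01 Atp5g1, with Atp5g2 at 18.5 ± 2.05 FPKM. Slc25a4 held 92.6% ± 0.456 of the adenine nucleotide translocators and Cpt1b 92.96% ± 0.661 of carnitine palmitoyltransferase 1. Fabp3 held 88.2% ± 0.555 of its family and Fabp4, which in heart marks capillary endothelium, 11.01% ± 0.526. Acsl1 held 93.7% ± 0.230 of the long-chain acyl-CoA synthetases. The lipid droplet coats were the least exclusive family, with Plin3 at 33.8% ± 1.21 and Plin5 at 29.0% ± 1.74. Plin3 was the higher in 5 of 5 mice, but the ranges overlapped (48.89 against 48.07 FPKM in RT3).

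The regulators of this metabolism were low and mixed. Ppara, the fatty acid sensor, had 52.8% ± 2.35 of the PPARs and Ppard 28.7% ± 1.35, of a sum of 23.5 FPKM. Esrra held 73.7% ± 1.66 of the estrogen-related receptors and Ppargc1a 77.3% ± 1.74 of the PGC-1 coactivators. Of the AMP-activated kinase, Prkaa2 held 86.1% ± 0.442 of the alpha subunits and Prkag1 83.7% ± 1.495 of the gamma subunits. Prkab2 and Prkab1 held 54.3% ± 3.70 and 45.7% ± 3.70 of the beta subunits, and in RT3 they stood at 16.89 and 16.84 FPKM. Eef1a1 and the muscle and neuron form Eef1a2 held 54.0% ± 1.10 and 45.96% ± 1.10 of elongation factor 1A. Gata4 held 66.6% ± 1.94 of the GATA factors and Mef2a 46.6% ± 1.74 of the MEF2 factors.

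The leader changed between mice in 3 families: the myomesins (above), the pyruvate dehydrogenase kinases and the natriuretic peptides. Pdk2, a kinase that inhibits pyruvate dehydrogenase, was steady at 139.7 FPKM in RT1, 139 in RT3, 136 in RT5, 144 in RT8 and 138 in RT10. Pdk4, its paralogue that is induced by fasting, had 97.75, 148, 131, 74.06 and 49.02 FPKM and was above Pdk2 in RT3 only. Nppb, the B-type natriuretic peptide made by stretched myocardium, had 213, 135, 276, 147 and 186 FPKM. Nppa, the atrial natriuretic peptide, had 352, 78.6, 122, 137 and 56.36 and led in RT1 only. Without RT1, Nppb led in all of the other 4 mice and Nppa had a mean of 98.6 FPKM ± 37.5 (SD, n = 4).

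The labelled tissue was checked against marker genes. All 13 genes of the ventricular cardiomyocyte list were above 1 FPKM, but the list also holds genes of heart muscle in general, such as Actc1 and Tnnt2. Irx4, a ventricular transcription factor, was at 9.50 ± 1.66 FPKM and Hey2, of the compact ventricular wall, at 1.72 ± 0.172. Of the 10 atrial markers, 9 had a mean of at least 1 FPKM, and 8 of these were highest in RT1, as were 32.5% of all genes. Myl7, Myl4, Sln, Dkk3 and Mybphl passed that minimum only through RT1, so the count of 8 was partly fixed in advance. Without RT1 the means of these genes lay between 0.0450 and 0.830 FPKM. The summed level of the 10 was 736 FPKM in RT1 and 77.9 to 159 in the others. Myl4, the atrial essential light chain, had 138 FPKM in RT1 and at most 1.14 elsewhere. Sln, sarcolipin, the SERCA regulator of atrium, had 56.18 in RT1 and at most 0.21 elsewhere. Dkk3 had 11.38 in RT1 and at most 0.88, and Mybphl 7.44 and at most 0.19. Myl7 had a mean of 29.1 ± 64.9 FPKM with RT1 and 0.0450 ± 0.0520 (SD, n = 4) without it. The means of Myl4 were 28.3 ± 61.4 and 0.830 ± 0.310, and those of Sln 11.3 ± 25.1 and 0.0825 ± 0.102, in the same order. The part of these transcripts in other features of RT1 was not tested.

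Other cell types of the heart were present at lower levels. Summed over their markers, endothelium (12 genes) lay between 686 and 737 FPKM, of which Fabp4 gave 429 ± 20.6, and Pecam1, the endothelial adhesion molecule, gave 39.5 ± 2.30. Fibroblast markers (11 genes) lay between 691 and 827, led by Gsn and by the matrix proteoglycan Dcn at 264 ± 20.9. Of the 11 fibroblast markers, 8 were highest in RT1 (72.7%, against 32.5% of all genes). In RT1 the 11 stood at a median of 1.18 times the mean of the other 4 mice, against 1.03 for all genes. Without RT1 their sum lay between 691 and 784 FPKM. Smooth muscle and pericyte markers (11 genes) lay between 341 and 362 FPKM, with Rgs5 of pericytes at 182 ± 7.30. Macrophage markers (11 genes) lay between 192 and 218, with Lyz2, lysozyme, at 105 ± 7.71. In bulk tissue, fewer cells of a type and less RNA per cell cannot be told apart.

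Transcripts of blood were present. The haemoglobin genes left out of the ranking summed to between 1599.9 FPKM in RT3 and 2507 in RT10, led by Hbb-bs, a beta chain, at 1130.4 ± 202. The 6 other erythroid markers summed to between 15.8 and 20.4 FPKM, and Alas2, the haem synthesis enzyme of red cells, had 6.95 ± 1.09. Schwann cell markers (6 genes) lay between 3.91 and 7.29 FPKM.

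Other cell types listed left few transcripts. Lymphocyte markers summed to at most 2.29 FPKM and fast skeletal muscle markers to at most 1.80, with none of 8 and none of 9 measured genes at a mean of 1. Myl1, a light chain of fast skeletal muscle outside that list, was higher, at 25.62, 9.93, 13.05, 13.29 and 12.26 FPKM. White adipocyte markers summed to between 0.280 and 3.93, highest in RT1, where Cfd, adipsin, reached 2.55. Of the mesothelial markers, 1 of 6 was above 1 FPKM (Wt1, 1.13 ± 0.232), and the lung surfactant gene Sftpb was listed at 0. Cidea, a lipid droplet protein of brown fat, had 18.1 ± 1.03 FPKM, while the other measured brown fat genes, Dio2 and Elovl3, were at 0.306 ± 0.229 and 0.0200 ± 0.0308.

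The spread between mice was small for most genes. Over the 11163 nuclear genes with a mean of at least 1 FPKM the median CV was 7.80%, with quartiles at 5.09% and 12.1%. The median CV was 15.2% between 1 and 2 FPKM and 3.95% above 1000 FPKM. The counting error that the estimated depth allows had medians of 12.7% and 0.556% in the same bins, and the same medians would be 8.31% and 0.364% at the 50 M reads of the labels. The spread was above the median counting error in both bins at either depth, by a larger ratio at high levels. A CV below its own counting error was found for 29.0% of genes at the estimated depth and for 9.28% at the labelled one.

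**Figure D4:**
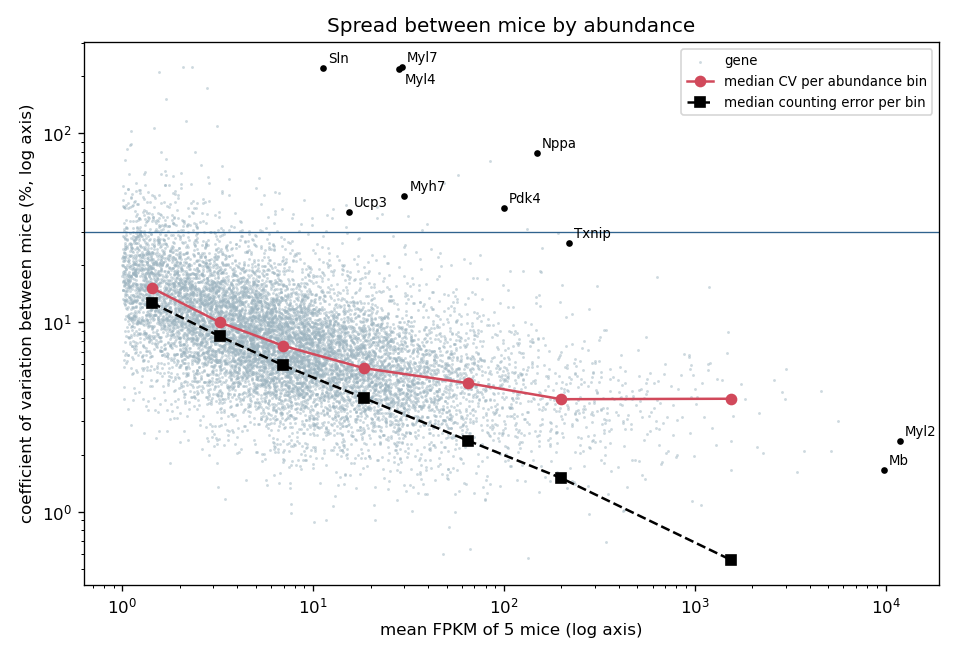
Coefficient of variation over 5 mice (y axis, percent, log) against mean FPKM (x axis, log) for 11163 nuclear genes. The line of bin medians runs from 15.2% at the left to 3.95% at the right, the dashed line gives the medians of counting error at the estimated depth and the horizontal line marks 30%; Myl7 lies at 223%, Nppa at 79.0%.

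A CV of at least 30% was reached by 271 genes (2.43%), of which 154 had a mean under 2 FPKM. RT1 was the highest library for 102 of them (37.6%, against 32.5% of all 11163 genes) and RT10 the lowest for 75 (27.7%, against 18.2%). Without RT1, 260 of the same 11163 genes reached 30%, and 201 genes did so in both. Among the 6517 protein-coding genes of at least 5 FPKM 30 reached it. The 10 highest CVs among these were those of Myl7 (223%), Sln (222%), Myl4 (217%), Nppa (79.0%), Erdr1 (51.5%), Arrdc2 (47.2%), Myh7 (46.5%), Cytl1 (44.2%), Myl1 (41.6%) and Ddit4 (40.7%). Those of Myl7, Sln and Myl4 lie near 223.6%, the largest CV of 5 values, reached where 4 are 0, and come from RT1 alone. Without RT1 the highest among such genes were Myh7 (54.8%), Timp4, an inhibitor of matrix metalloproteinases (46.7%), and Pdk4 (46.4%).

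The 10 lowest CVs belonged to Psmd4 (0.600%), Flot1 (0.631%), Rpl26 (0.695%), Adipor1 (0.833%), Ogfr, Usp15, Crot, Ndufb2, Smc3 and Ap2m1 (0.992%). All 10 lie under their counting error at the estimated depth and 9 of them at the labelled depth, so their order is not resolved. Psmd4, a ubiquitin receptor of the proteasome, had 48.07, 48.03, 47.77, 48.43 and 48.45 FPKM. Of the 16 genes often used as references, Pgk1 had the lowest CV at 1.71%, Rplp0 had 3.46%, Gapdh 4.71%, Hprt 7.36% and Actb 7.42%. Tfrc, the transferrin receptor, had the highest at 20.0%, and Tbp had 12.3%.

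Genes that respond to glucocorticoids, FOXO factors and fasting had a wider spread. Their list of 19 genes, all above 1 FPKM, had a median CV of 24.5%, and 15 were lowest in RT10 (78.9%, against 18.2% of all genes). In RT10 they stood at a median of 0.651 times the mean of the other 4 mice, where all genes stood at 1.001. Without RT10 the median CV of the list was 12.7%. Txnip, an inhibitor of thioredoxin and of glucose uptake, had 212 FPKM in RT1, 258 in RT3, 248 in RT5, 256 in RT8 and 122 in RT10. Tsc22d3, the glucocorticoid-induced leucine zipper, had 32.21, 52.29, 46.67, 46.67 and 29. In both genes RT10 was the lowest library. Ddit4, an inhibitor of mTORC1 outside the list, had 11.26, 29.21, 26.06, 28.89 and 13.04, low in RT1 as well as RT10. Members with a CV of at least 30% were Pdk4, the metallothionein Mt2 (52.46, 44.45, 48.67, 31.18 and 21.02), Ucp3, Fkbp5 and Angptl4. Ucp3, an uncoupling protein of muscle, had 25.97 FPKM in RT3 and 12.08 to 13.84 in the other libraries.

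**Figure D5:**
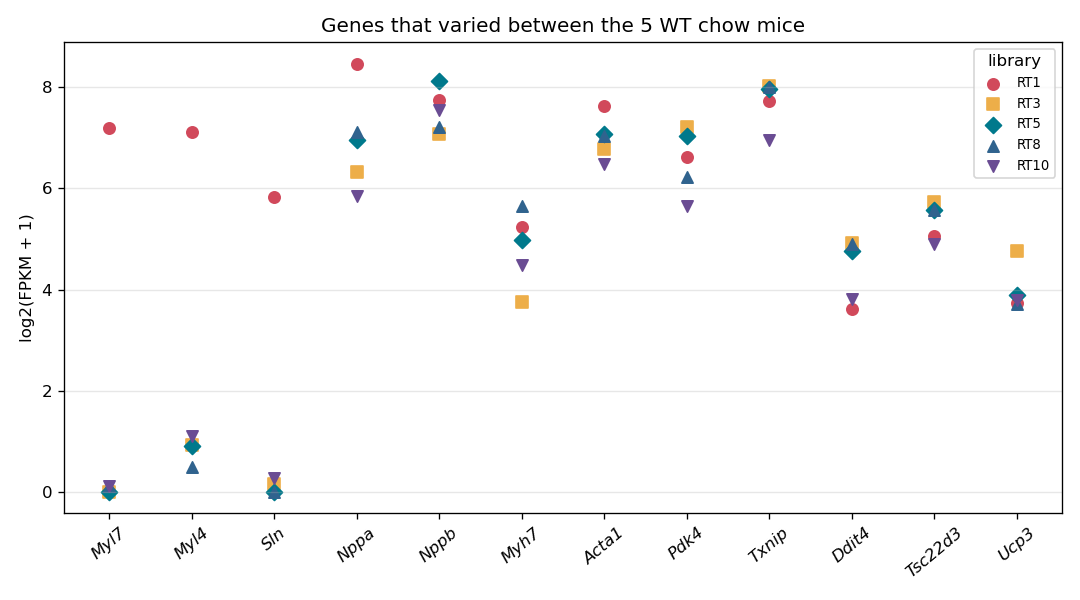
Values of 12 genes, as log2(FPKM + 1), in each of the 5 libraries (1 symbol per library). Myl7, Myl4 and Sln stand far above the other libraries in RT1, Pdk4 and Txnip are lowest in RT10 (49.02 and 122 FPKM), and Ucp3 is highest in RT3 at 25.97 FPKM.

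Other responsive lists had other libraries at their ends. Of 15 immediate-early genes above 1 FPKM, 4 had a CV of at least 30% (2.43% of all genes, and 9.64% of those between 1 and 2 FPKM), namely Zfp36 (35.7%), Egr1 (37.0%), Atf3 (51.0%) and Nr4a3 (36.3%). Egr1 and Zfp36 were highest in RT3, at 4.69 and 11.51 FPKM, whereas Atf3 and Nr4a3 were highest in RT1, at 3.48 and 2.8. In the heat shock list 6 of 12 genes were highest in RT1 and 5 in RT5, and 7 were lowest in RT8. Over all genes 32.5% were highest in RT1, 11.3% highest in RT5 and 23.7% lowest in RT8. Hsp90aa1, the inducible cytosolic chaperone, had 64.24, 43.51, 63.58, 43.63 and 47.48 FPKM. Hspa1b, a member of the heat shock list under 1 FPKM (mean 0.702), had a CV of 51.8%. Among the 12 genes of that list above 1 FPKM, Hspa1a alone passed a CV of 30%, at 50.9% on a mean of 1.07 FPKM. Among 17 clock and clock output genes above 1 FPKM none did: Nr1d2 had 3.59%, Tef 5.10% and Dbp 8.29%, while Per1, which is also in the glucocorticoid list, had 25.9%. None of 15 interferon-stimulated genes did either, with 9 of 15 lowest in RT8 (against the same 23.7% of all genes). With 2.43% of all genes past a CV of 30%, finding none in lists this short says little about their members. Of the smooth muscle markers Cnn1, calponin, reached 31.0% at 1.39 FPKM.

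Promoters of the abundant genes were searched for 5 sequence motifs on both strands, in windows of 250 bases before to 50 after the RefSeq start (GRCm38.p6). The TATA box TATAAA was present for 13 of the 100 most abundant genes with an entry, for 8.83% of genes of at least 1 FPKM and for 15.7% of all 27025 genes in the table. It was present for 11 of 50 contractile genes and 6 of 68 genes of oxidative phosphorylation. A GATA motif, AGATAA, was present for 13 of the 100 genes, 7.64% and 12.7%, and CCAAT for 46, 42.6% and 41.1%. The motif TCAAGGTCA of the estrogen-related receptors occurred for 2 of the 100 genes, against 0.466% of all genes. The MEF2 site was searched as 1 exact string, and variants of it were not sought. That string was present for 1 of the 100 genes and for 0.181% of all genes. It was present for none of the 50 contractile or 68 oxidative phosphorylation genes. For a string this rare, finding none in lists this short does not show that their promoters lack MEF2 sites. The MEF2 string contains the TATA string on its other strand, and no other pair of the 5 overlaps in this way. A match is a string in this window and says nothing of binding.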

How the data were processed

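Poly(A) RNA of left ventricle was sequenced as single-end reads of 100 nt at about 50 M per sample, per the labels' protocols. The authors deposited 1 table per library with FPKM values, rounded to 2 decimals. Bowtie2, RSEM and DESeq2 and the build mm9 are named in the submitters' processing notes, without versions or roles, and the settings are not given in the sources used here. Gene identifiers were matched to GENCODE M21, where 24938 of 25052 were found. All coordinates are those of GRCm38 from that annotation, which may differ from the build the authors used. Identifiers numbering 70 share a symbol with another. No protein sequences were used here.

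FPKM was used as deposited, with Python 3.11.15, pandas 2.3.3, numpy 2.4.6 and scipy 1.17.1. Copies of mitochondrial genes were found with blastn 2.17.0 (e-value 1e-20). Depth was estimated as the number of reads at which the values of short genes become whole multiples of 1 read: at the chosen depth 57.1% to 58.6% of the values used came out whole within 0.05, against a median of 4.62% over trial depths, so the estimate is rough and no count test was run. It lies under the depth in the labels and sets the counting error, which covers sampling of reads only. SDs and CVs are over 5 libraries, which the labels describe as separate mice. Spread used genes with a mean of at least 1 FPKM, log values a pseudocount of 1, and the code was tested on simulated data.

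The libraries were grouped by their labels. Named genes are the most abundant 25 to 50, the first members of each family, the 10 highest and lowest CVs among protein-coding genes of at least 5 FPKM and list members with a CV of at least 30%, with further class members, Ddit4 and Acacb named outside this rule. Some members of the lists are not reported here. The families, classes and marker lists were chosen with earlier results of these data known. Alternatives covered the genes in the sum, transcript length, scaling, minimums and leaving out each library.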

Additional observations from a re-analysis of the deposited data

Results flagged for a closer look

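The gap of the highest or lowest of 5 libraries to its neighbour, as a fraction of their whole range, passed Dixon's 95% limit for 12 of 188 results checked, 8 of them in RT1. Chance flags about 1 in 20 groups.

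The 5 largest gaps were those of atrial transcripts in RT1. The fraction was 0.999 for Myl7, 0.996 for Sln, 0.995 for Myl4, 0.978 for Mybphl and 0.969 for Dkk3, whose values stand above. Nppa, also highest in RT1, had the smallest fraction of the 12, 0.727. In the same library Casq1, the calsequestrin of skeletal muscle, was at 5.84 FPKM against 1.26 to 1.83 (fraction 0.876). Myl1, an essential light chain of fast skeletal muscle, was at 25.62 against 9.93 to 13.29 (fraction 0.786).

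In RT3, Ucp3 stood high with a fraction of 0.873. Slc2a8, a glucose transporter, stood at 8.06 FPKM there against 6.08 to 6.36 elsewhere (fraction 0.859). Slc8a1, the sodium-calcium exchanger, was lowest in RT5 at 55.83 FPKM against 64.24 to 66.32 (fraction 0.802). Adipor1, an adiponectin receptor, was highest in RT10 at 51.92 against 50.82 to 51.08 (fraction 0.764), although its CV was among the lowest.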

How the results depend on the processing

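The genes kept in the sum set the shares. With all genes in it, 11 genes made up 50% of the FPKM, with protein-coding genes alone 222, and without the copies of mitochondrial genes, an alternative added after the data were seen, 231, against 30 by the ranking as stated. The contractile share was 6.18% with all genes, 11.3% by read mass and 14.4% without the copies, and the energy share 7.39%, 10.7% and 17.3%. The energy share was the larger in each but read mass. The median CV was 7.64% after scaling to a common sum, 7.52% after median-of-ratios scaling, 6.05% with a minimum of 5 FPKM and 10.2% with 0.1. The genes with a CV of at least 30% numbered 45 and 2531 with these minimums, and 103 had an SD of log2(FPKM + 1) of at least 0.4. Leaving out 1 library at a time gave 29 to 30 genes for 50%, contractile shares of 9.23 to 9.27%, energy shares of 11.02 to 11.1%, 65 to 66 families with 1 leader, median CVs of 7.26 to 7.62% and 248 to 292 genes past 30%, each over the genes whose mean in the remaining libraries is at least 1 FPKM. No paired analysis was possible because a single group was described and no test between groups was run. Genes with a CV below their counting error numbered 3240 at the estimated depth and 1036 at the labelled one, an alternative chosen after seeing the data. At the estimated depth, counting error limits what can be read from genes under 2 FPKM.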
